A study of Mus musculus with 2 samples.

Results

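Collagen genes were taken as the 44 of 31253 counted genes whose symbol is Col, a number, the letter a and a number, and they were followed across both libraries of a single-cell study of MB49 tumours. All 44 had at least 1 unique molecular identifier (UMI, one counted transcript) in the data, and 14 had fewer than 10 UMIs over all kept cells. MB49 is a mouse bladder cancer line, and live CD45+ cells were sorted from its tumours after 45 min at 37 °C with collagenases and other enzymes, then captured on BD Rhapsody microwells. The tumours came from chimeras, female mice irradiated to destroy their own marrow and rebuilt with male marrow that was WT or Lcn2-KO. Lcn2 encodes a secreted lipocalin, and the study asked about its part in tumour neutrophils. The series has 2 libraries, wt and Lcn2-ko by their labels. The genotype therefore belongs to the marrow, and MB49 tumours were used under both labels. The genotype of the hosts and the number of animals behind each library are not given in the sources used here. Because each label has 1 library, no difference between libraries was tested, and the 95% intervals below cover counting error only.

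Collagens are extracellular proteins in which alpha chains, each the product of its own gene, wind into a triple helix. Fibrillar collagens form the cables of connective tissue, network collagens form the sheet of basement membranes, and beaded-filament collagens link cells to both. In solid tumours, fibroblasts are the best-known source of fibrillar collagens, endothelial cells and pericytes lay down basement membrane, and leukocytes are not a usual source of either. Type I collagen is normally built from the products of Col1a1 and Col1a2 together, and type V collagen from those of Col5a1 and Col5a2, at times with Col5a3.

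The libraries held 7974 (wt) and 7788 barcodes and 42069099 and 40959725 UMIs, and 4 barcodes occurred in both. After filtering, 7399 and 7241 cells in 25 clusters were described. Lcn2 was still counted in neutrophils of the Lcn2-ko-labelled library, at 163 CPM (UMIs per 1000000 UMIs of the cells summed, exact Poisson interval 129 to 202) from 82 UMIs, 23 of them in 1 cell, against 210.1 CPM (182 to 241) in wt. The deleted part of Lcn2 is not given in the sources used here and UMIs mark only the 3′ end of a transcript, so these counts do not check the label, and the library is named by it throughout.

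Although the sort was for CD45, the product of Ptprc, 5 clusters had little Ptprc, and they held 1866 wt cells (25.2%) and 1686 cells (23.3%) of the Lcn2-ko-labelled library. In 4 of these clusters, with 1848 and 1661 cells, the keratin gene Krt18 stood between 515 and 727 CPM, and a Y-linked UMI with no Xist UMI was found in 38.3% and 36.4% of cells. These are called the Krt18-high clusters. Only 2 to 4 of 8 epithelial markers stood out in each, so an epithelial name was not given, and that they are MB49 cells was not tested. Of 12 fibroblast markers, none of them collagens, 4 stood out in cluster 1, 3 in cluster 6, 1 in cluster 3 and 0 in cluster 14. The fibroblast marker Dcn stood at 326 and 318 CPM in cluster 1. One of the 4, cluster 14, had shallow cells with a median of 1122 UMIs. The remaining Ptprc-low cluster held 18 and 25 cells, with Krt18 at 19.3 and 5.59 CPM. It carried 10 of 10 endothelial, 9 of 12 fibroblast and 6 of 8 pericyte or smooth muscle markers, with Xist at 454 and 336 CPM. It is called the stromal-like cluster, and it mixes cell types.

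The upstream sequences of Col1a2 and Col3a1 are shown because Col3a1 was counted in most cells of the Krt18-high clusters and Col1a2 in hardly any. Each is the 250 bases before the RefSeq start on GRCm38.p6, plus strand, 5′ to 3′, with motif matches in capitals, at chr6:4505368-4505617 for Col1a2 and chr1:45311288-45311537 for Col3a1.
Col1a2: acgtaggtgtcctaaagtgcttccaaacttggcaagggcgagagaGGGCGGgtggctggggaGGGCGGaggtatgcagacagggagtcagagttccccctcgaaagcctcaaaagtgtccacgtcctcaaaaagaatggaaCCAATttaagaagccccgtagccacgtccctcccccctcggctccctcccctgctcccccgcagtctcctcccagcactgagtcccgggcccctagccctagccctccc
Col3a1: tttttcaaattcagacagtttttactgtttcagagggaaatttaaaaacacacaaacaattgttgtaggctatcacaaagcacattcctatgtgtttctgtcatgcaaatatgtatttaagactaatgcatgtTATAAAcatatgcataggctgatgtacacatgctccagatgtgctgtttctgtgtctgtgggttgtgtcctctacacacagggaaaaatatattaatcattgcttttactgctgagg
Both strands were searched for the CCAAT box, spelled as in its name. They were also searched for the TATA box, for which the letters TATAAA were used. The last motif was the GC box, for which the letters GGGCGG were used. No match overlapped another in either window. The Col1a2 window held the CCAAT box from position -109 and the GC box from positions -205 and -188, counted from the start site, and 62% of its bases were G or C. The Col3a1 window held the TATA box from position -117, and 35.2% of its bases were G or C. Over all 32851 RefSeq windows of this length, the CCAAT box was found in 33.8%, the TATA box in 12.4% and the GC box in 32.7%, beside 13, 5 and 21 of the 35 collagen genes in that table. Col1a1, the partner of Col1a2, and Col5a2, the neighbour of Col3a1, had no window there. The GENCODE annotation of mm10 starts the Col1a2 gene further upstream, at base 4504814 of chromosome 6, so the window shown lies before only one of its starts.

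Collagen transcripts lay almost entirely in the Ptprc-low cells, which held 97.8% of collagen UMIs in wt and 97.3% in the Lcn2-ko-labelled library. There the 44 genes together reached 12481 CPM (12427 to 12534) in wt and 12984 CPM (12928 to 13040.0) in the Lcn2-ko-labelled library. UMIs are counted at the 3′ end of a transcript, so levels of different genes were compared without scaling by length. Col1a1, Col6a1 and Col6a2 made up 73.9% of the collagen UMIs of these cells, and 18 members reached 20 CPM in either library. In the Krt18-high clusters 17 members did so, and in the stromal-like cluster 21. Within bulk sums of this kind, fewer cells making a transcript and less transcript per cell cannot be told apart, so shares of cells with a UMI are given for the main members.

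**Figure D1:**
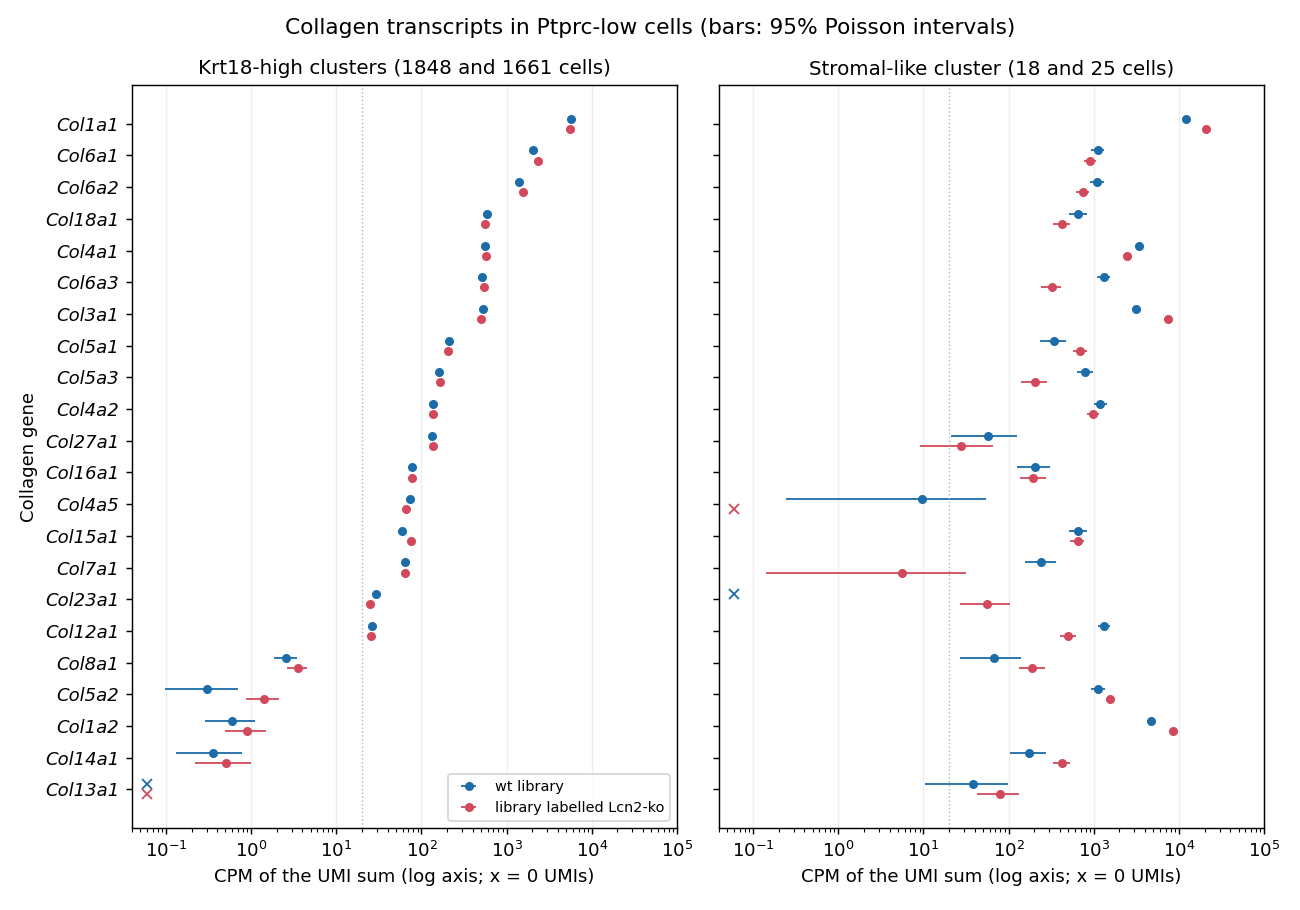
Levels of the 22 collagen genes that reached 20 CPM (dotted line) in the Krt18-high clusters (left) or the stromal-like cluster (right), as CPM on a log axis, wt in blue and the Lcn2-ko-labelled library in red, with 95% Poisson intervals and crosses for 0 UMIs. Both libraries nearly coincide above the dotted line on the left, where Col1a1 leads at 5751 and 5570.0 CPM and Col1a2 and Col5a2 stay at or below 1.41 CPM, while both reach 1130 CPM or more on the right.

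Fibrillar collagens were the largest group in the Krt18-high clusters, at 53.6% of collagen UMIs there, and Col1a1 carried most of that. Col1a1 stood at 5751 CPM (5715 to 5788) in wt and 5570.0 CPM in the Lcn2-ko-labelled library, with a UMI in 95.9% and 97.1% of cells. Col3a1, whose product forms type III fibrils by itself, stood at 522 and 498 CPM and was counted in 72.6% and 72.3% of cells. In the immune classes, at a median depth of 3012.5 UMIs against 8345, a Col1a1 UMI was found in 20.9% and a Col3a1 UMI in 3.52% of 11088 cells over both libraries. The minor fibrillar genes were in the same range in both libraries. Col5a1, which helps start and size fibrils, stood at 208 and 202 CPM, and its partner Col5a3 at 159 and 163 CPM. Col27a1, a fibrillar gene best known from cartilage, stood at 133 and 138 CPM.

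The partner chain of type I collagen was nearly missing from these cells. Col1a2 gave 10 UMIs in wt and 14 in the Lcn2-ko-labelled library, or 0.60 and 0.896 CPM, in 23 of 3509 cells. For every 100 Col1a1 UMIs there were 0.0104 and 0.0161 of Col1a2. In the stromal-like cluster the same count was 38.6 and 41.6, so the gene was countable in these libraries. Of Krt18-high cells with at least 20 Col1a1 UMIs, 7 of 1329 in wt and 11 of 1252 in the Lcn2-ko-labelled library had any Col1a2 UMI, against 6 of 8 and 7 of 8 stromal-like cells. The level over both libraries was 0.743 CPM (0.476 to 1.11), beside 0.915 CPM (0.660 to 1.24) in the immune classes. By cells, a Col1a2 UMI was found in 0.655% of Krt18-high cells, at a median depth of 8345 UMIs. In immune cells, at a median depth of 3012.5, the share was 0.352%. Whether these few UMIs are background or expression was not tested. No Krt18-high cluster of either library held more than 7 Col1a2 UMIs.

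**Figure D2:**
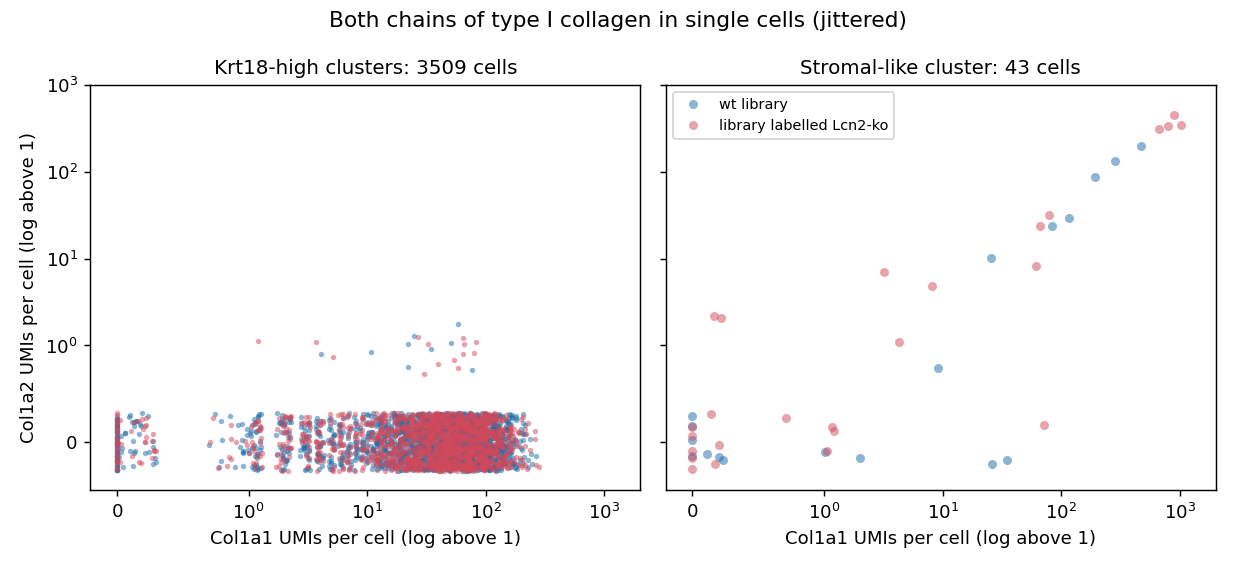
UMIs of Col1a1 (horizontal) and Col1a2 (vertical) in each Ptprc-low cell, jittered, on axes that are logarithmic above 1, wt in blue and the Lcn2-ko-labelled library in red. The 3509 cells of the Krt18-high clusters (left) spread up to 279 Col1a1 UMIs with at most 2 of Col1a2, whereas in the 43 stromal-like cells (right) the highest counts are 1022 and 450.

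Col5a2 showed the same split against its partner and against its neighbour in the genome. It gave 5 and 22 UMIs in the Krt18-high clusters, or 0.30 and 1.41 CPM, in 19 of 3509 cells, and 1130 (934 to 1354) and 1555 CPM in the stromal-like cluster. Over both libraries its level in the Krt18-high clusters was 0.836 CPM (0.551 to 1.22) against 0.262 CPM (0.135 to 0.457) in immune cells. These pooled intervals do not overlap, but only the Lcn2-ko-labelled library showed the separation. There Col5a2 stood at 1.41 CPM (0.882 to 2.13) against 0.305 CPM (0.122 to 0.628) in immune cells. In wt the intervals overlapped, at 0.0974 to 0.6998 CPM against 0.0709 to 0.509 CPM in immune cells. Of the 22 UMIs of the Lcn2-ko-labelled library, 14 lay in cluster 3, and the highest count in a cell was 5. Per 100 UMIs of Col5a1 there were 0.144 and 0.695 of Col5a2 in the Krt18-high clusters and 334 and 226 in the stromal-like cluster. On chromosome 1 of mm10, Col3a1 (45311538 to 45349706, plus strand) and Col5a2 (45374321 to 45503282, minus strand) end 24614 bases apart, tail to tail. In the Krt18-high clusters Col3a1 was counted in most cells and Col5a2 in few, while in the stromal-like cluster both were high.

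Beaded-filament genes made up 33.5% of collagen UMIs in the Krt18-high clusters and 6.01% in the stromal-like cluster. Col6a1 stood at 2049 CPM (2027 to 2071) in wt and 2315 CPM in the Lcn2-ko-labelled library, Col6a2 at 1387 and 1568 CPM, and Col6a3 at 508 and 538 CPM. The products of all of them assemble into type VI collagen. The other beaded-filament genes, Col6a4, Col6a5 and Col6a6, gave at most 15 UMIs in either library. Col6a1 and Col6a2 lie 85161 bases apart on chromosome 10, on the same strand, and kept a steady proportion, with 67.7 and 67.8 UMIs of Col6a2 per 100 of Col6a1. Across single Krt18-high cells thinned to 4000 UMIs each (1489 and 1414 cells), Pearson's r of log2(UMIs + 1) between them was 0.77 in wt and 0.78 in the Lcn2-ko-labelled library. Between Col1a1 and Col6a1 it was 0.59 and 0.56, and between Col1a1 and Col6a3 it was -0.03 and -0.01. These cells share a library and span all 4 clusters, and r is given as a description.

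Among basement membrane and related genes, Col4a1 and Col4a2, whose products form the common type IV network, stood at 560 and 136 CPM in wt and at 566 and 136 CPM in the Lcn2-ko-labelled library. The gene pair is head to head on chromosome 8 and its annotated ends overlap by 22 bases, yet Col4a2 gave 24.3 and 24.0 UMIs per 100 of Col4a1. In the stromal-like cluster that proportion was 34.9 and 40.2. Col18a1, a basement membrane proteoglycan whose fragment is endostatin, stood at 593 and 554 CPM, and its relative Col15a1 at 59.6 and 75.5 CPM. Col4a5 stood at 72.7 and 65.1 CPM, with its divergent neighbour Col4a6, 1308 bases away on chromosome X, at 0 and 1 UMI. A count of 0 allows up to 3 UMIs. Col7a1, the anchoring fibril gene, stood at 63.5 and 64.5 CPM.

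The last members at 20 CPM in these clusters were Col16a1 (77.8 CPM in both libraries) and Col12a1 (26.6 and 25.3 CPM), which coat fibrils, and Col23a1 (29.4 and 25.1 CPM), a transmembrane collagen. The other 27 members were each at or below 3.52 CPM. Col11a1, Col13a1, Col26a1, Col28a1 and Col6a5 had 0 UMIs there. A single Krt18-high cell of the wt library held 23 of its 29 Col17a1 UMIs, Col17a1 being a hemidesmosomal collagen of basal epithelium, and 24 of the 29 lay in cluster 14, where the basal keratins Krt5 and Krt14 were among the leading genes.

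The Krt18-high clusters differed in how much collagen they carried, and the order of their summed levels was the same in both libraries. Collagens were left out of the genes used for clustering. Cluster 6, led by Fgb, Serpina1b and Clu, had 17125 and 19066 CPM. Cluster 1, with Inhba, Nos2, Ereg and Dcn among its leading genes, had 13684 and 13746 CPM. Cluster 3, led by cell-cycle genes such as Birc5 and Ccnb1, had 9081 and 9050 CPM, and cluster 14 had 9710 and 9693 CPM. The cycling cluster lay below the pooled other Krt18-high clusters by 0.74 on the log2 scale over both libraries (-0.75 to -0.73), at the highest depth of them, with median UMIs of 13003 and 13395. Within clusters the spread between cells was wide. In cluster 6 of the wt library the 10th and 90th percentiles of summed collagen were 4797 and 30411 CPM around a median of 17521, and in cluster 3 they were 4247 and 15491 CPM around 8748. The median cell of shallow cluster 14, at 6934 and 6466 CPM, lay below that of cluster 3, at 8748 and 8765 CPM, so the order of these 2 clusters turns between summed UMIs and median cells.

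Single members did not follow that order alike. Col1a1 and Col6a1 were highest in cluster 6, at 8620.0 and 8992 CPM and at 2940.3 and 3749 CPM. Col5a3 instead was highest in cluster 1, at 311 and 287 CPM, and lowest in cluster 6, at 68.6 and 95.1 CPM. Col15a1 was also highest in cluster 1, at 107 and 137 CPM, and lowest in cluster 3, at 22.2 and 22.7 CPM. Col6a3 was higher in cluster 1 (647 and 619 CPM) than in cluster 6 (391 and 441 CPM), opposite to Col6a1 and Col6a2. The proportion of Col6a3 to 100 Col6a1 UMIs accordingly ran from 13.3 and 11.8 in cluster 6 to 35.6 and 36.5 in cluster 3.

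The stromal-like cells carried more collagen and another mixture, with 33617 CPM (32510 to 34753) in wt and 46935 CPM (45936 to 47950) in the Lcn2-ko-labelled library. Of 22 members with at least 20 CPM in either kind of cell in each library, 10 were at least 4-fold higher there than in the Krt18-high clusters in both libraries, where 6.49% of all 7137 genes compared were. They were Col1a2, Col3a1, Col5a2, Col12a1, Col13a1, Col14a1, Col15a1, Col8a1, Col4a1 and Col4a2. Of these, Col1a2, Col5a2, Col13a1, Col14a1 and Col8a1 stood at or below 3.52 CPM in the Krt18-high clusters. They reached 20 CPM only through the stromal-like cells, so for them the 4-fold call was fixed by that limit. For Col3a1, Col12a1, Col15a1, Col4a1 and Col4a2 it was not fixed. By the counted values 1 member, Col4a5, was at least 4-fold lower in both, against 3.08% of genes. It rests on 1 and 0 UMIs, and the 0 allows up to 16.8 CPM, which is less than 4-fold below the 65.1 CPM of the Krt18-high clusters, so a 4-fold difference is not shown for it. Col1a2 differed most, at 4634 and 8538 CPM, a log2 ratio of 12.92 and 13.22 to the Krt18-high clusters. Col14a1, a fibril-associated gene of fibroblasts, stood at 174 and 420 CPM against 0.360 and 0.512 CPM. Col13a1, a transmembrane collagen, gave 4 and 14 UMIs against 0. The beaded-filament genes Col6a1 and Col6a2 went the other way but less than 4-fold, at 1110 and 901 CPM and at 1081 and 739 CPM.

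Split by which marker list had most UMIs in a cell, a split chosen after the values were seen, the cluster held 5 and 8 fibroblast-marker cells, 10 and 13 endothelial-marker cells and 3 and 4 pericyte-marker cells. Type I and III genes were highest in the fibroblast-marker cells, where Col1a1 stood at 27170 and 52123 CPM, Col1a2 at 11149 and 22048 CPM, and Col3a1 at 7155 and 19226 CPM. In these few cells collagens summed to 60545 and 109526 CPM. Endothelial-marker cells had no Col1a2 UMI and were led by Col4a1 and Col4a2, with Col4a1 at 4850 (4265 to 5492) and 3300 CPM, Col4a2 at 1525 and 1288 CPM and Col15a1 at 802 and 630 CPM. Col13a1 was counted in endothelial-marker cells only, in 3 of 10 and 4 of 13 of them. Pericyte-marker cells had Col4a1 at 9257 and 1108 CPM, the second from 4 UMIs. Col4a1 was thus the highest member in both vessel-associated sets of the wt library. In the pericyte-marker cells of the Lcn2-ko-labelled library it was not, with Col1a1 at 3323 CPM and Col1a2 and Col3a1 each at 2769 CPM.

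Between the libraries, collagen levels in the Krt18-high clusters were close. The log2 ratio of the summed collagens, the Lcn2-ko-labelled library over wt, was 0.03 (0.02 to 0.04), and no member of the 17 reached 1.5-fold in either direction, where 0.357% of 6729 genes were that much higher and 0.594% that much lower. The median of the 17 ratios was 0.00 beside -0.03 over all genes. Col15a1 was the highest, at 59.6 and 75.5 CPM, with a log2 ratio of 0.34 (0.22 to 0.46). Col23a1 was the lowest at -0.23 (-0.42 to -0.03). Col6a1 and Col6a2 were both higher by 0.18, and Col1a1 was at -0.05 (-0.06 to -0.03). These intervals leave 0 on the outside, but with 1 library per label the spread between libraries is unknown.

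**Figure D3:**
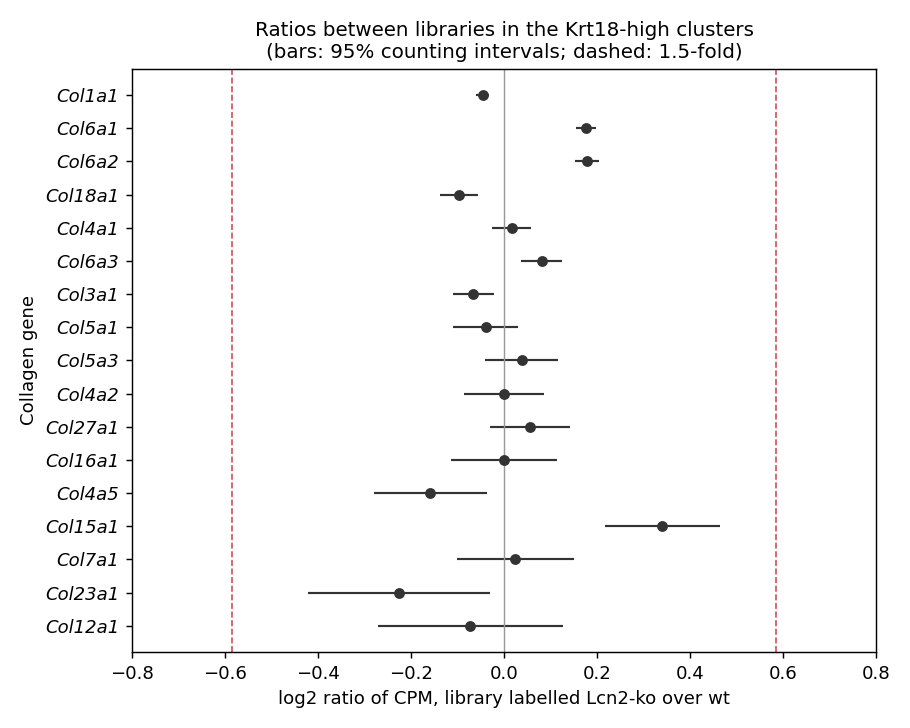
Log2 ratio of CPM, the Lcn2-ko-labelled library over wt, for the 17 members at 20 CPM or more in the Krt18-high clusters, with 95% counting intervals and dashed lines at 1.5-fold. All 17 lie inside the dashed lines, from Col23a1 at -0.23 to Col15a1 at 0.34.

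Within the single Krt18-high clusters with deep cells, no member reached 1.5-fold either, but the smaller ratios differed. The summed collagens had a log2 ratio of 0.0065 in cluster 1, -0.0050 in cluster 3 and 0.15 (0.14 to 0.17) in cluster 6. In cluster 6, with 481 and 356 cells, members ran from Col4a5 at -0.24 to Col5a3 at 0.47 (0.23 to 0.72). Col6a1 and Col6a2 stood there at 0.35 and 0.36. In cluster 1, 0 of 17 members were at least 1.5-fold higher (0.987% of genes) and 0 lower (1.02%), in cluster 3, 0 of 16 were higher (0.517%) and 0 lower (0.842%), and in cluster 6, 0 of 17 were higher (0.768%) and 0 lower (2.19%). In shallow cluster 14, 4 of 18 were higher (12.4% of genes) and 2 lower (16.2%), where both shares of all genes were also high. Over all Ptprc-low cells 1 of 18 members was at least 1.5-fold higher (0.475% of genes) and 0 lower (0.594%). That member was Col1a2, at 29.2 and 97.4 CPM, and 480 of its 490 and 1526 of its 1540 UMIs came from the 18 and 25 stromal-like cells. Without those cells no member was past 1.5-fold. Within the stromal-like cluster, 8 of 21 members were at least 1.5-fold higher (27.6% of genes) and 6 lower (27.5%). These counts rest on few cells, of which fibroblast-marker cells were 5 in wt and 8 in the Lcn2-ko-labelled library.

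The other genes of collagen production were close between libraries too. Of 31 genes for collagen processing, 19 reached 20 CPM in Ptprc-low cells, and none of these was 1.5-fold higher or lower. Their median log2 ratio was 0.01 beside -0.03 over all genes. P4hb, a subunit of the enzyme that hydroxylates collagen prolines, stood at 1142 and 1239 CPM, and Serpinh1, the collagen chaperone, at 443 and 438 CPM. Plod3, a lysyl hydroxylase, had the highest ratio at 0.30 (0.12 to 0.48) and P3h1, a prolyl 3-hydroxylase gene, the lowest at -0.22 (-0.43 to -0.00089). Of 12 collagen receptor genes, 3 reached 20 CPM and none was past 1.5-fold. These were the receptor kinases Ddr2 (201 and 191 CPM) and Ddr1 (119 and 122 CPM) and the integrin gene Itga2 (48.3 and 42.2 CPM). Itgb1, the beta chain that every collagen-binding integrin needs, stood at only 9.12 and 9.72 CPM in the Krt18-high clusters but at 792 and 806 CPM in the stromal-like cluster. Of 14 other structural genes, 9 reached 20 CPM in Ptprc-low cells. There 3 were at least 1.5-fold higher and none lower, beside 0.475% and 0.594% of all genes, with a median of 0.06. The 3 were Fstl1, Igfbp7 and Bgn, which in the Krt18-high clusters stayed at or below 7.10 CPM. The lowest ratio was that of Tnc, tenascin C, at -0.56 (-0.71 to -0.41). In the Krt18-high clusters alone Tnc stood at 49.7 and 31.5 CPM, which is past 1.5-fold lower.

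Over the 10 points given by 5 Ptprc-low clusters in each library, the genes outside the family whose log2(CPM + 1) followed the summed collagens most closely, among 1774 genes at 100 CPM or more, were Sparc (Pearson's r 0.96), Itm2c (0.96), Pim1 (0.96), Nucb1 (0.95), Mxra8 (0.95) and Lamc1 (0.94). Sparc encodes a secreted collagen-binding protein and Lamc1 a laminin chain. In the 8 points of the Krt18-high clusters r was 0.94 for Sparc and 0.72 for Lamc1. Points of the same cluster in both libraries are close to each other, so the number of separate patterns is smaller than 10.

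Collagen UMIs were sparse in every immune class. Over 5533 wt immune cells there were 4677 collagen UMIs, or 204 CPM (198 to 210), and over 5555 cells of the Lcn2-ko-labelled library there were 5705, or 248 CPM (242 to 255). These were 1.64% and 1.91% of the Ptprc-low level of the same library. By class the level was 354 and 444 CPM in neutrophils, 222 and 264 CPM in T cells and 178 and 241 CPM in NK cells. Monocyte-macrophages had 183 and 235 CPM, and dendritic cells 179 and 199 CPM. Mast cells or basophils had 200.1 and 314 CPM, and B cells 229 and 342 CPM from 17 and 20 UMIs. No class stood at more than 3.42% of the Ptprc-low level. The shallowest of the larger classes, neutrophils, with median depths of 1355 and 1219 UMIs, stood highest.

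**Figure D4:**
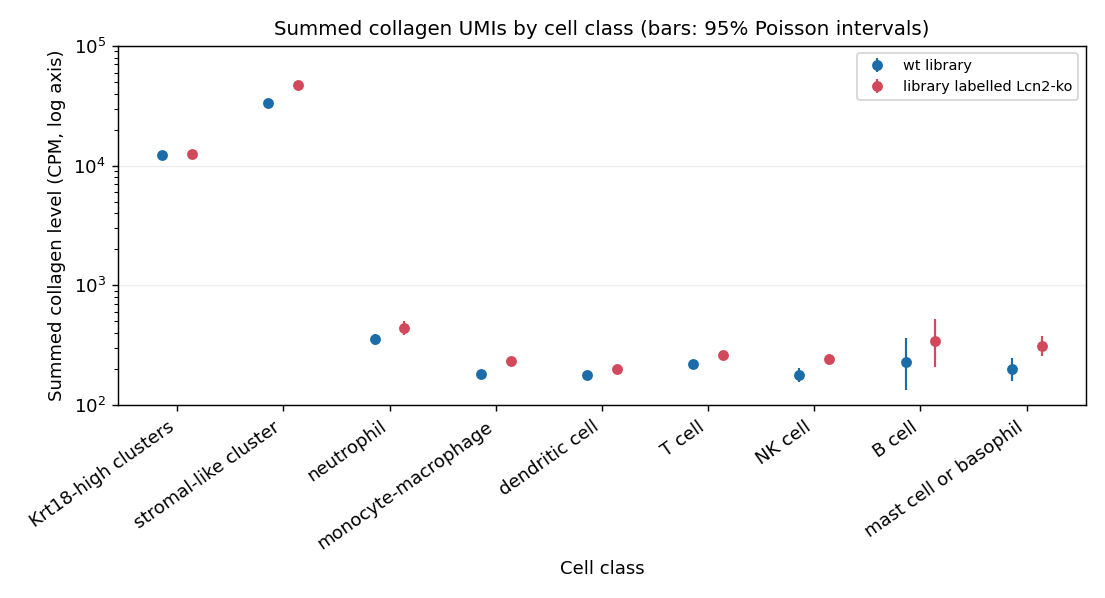
Summed collagen UMIs of each cell class as CPM on a log axis, wt in blue and the Lcn2-ko-labelled library in red, with 95% Poisson intervals. Both kinds of Ptprc-low cells lie above 10000 CPM and every immune class between 178 and 444 CPM, higher in the Lcn2-ko-labelled library in all 7 classes.

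At least 1 collagen UMI was found in 48.5% of wt immune cells (47.2 to 49.9%, Clopper-Pearson) and in 55.9% (54.6 to 57.2%) of immune cells of the Lcn2-ko-labelled library, at median depths of 2972 and 3035 UMIs. With every cell thinned to 800 UMIs, which left out 126 and 116 cells, these shares were 15.4% and 19.0%. The Krt18-high clusters gave 98.6% and 99.3% unthinned. Col1a1, Col6a1 and Col6a2 made up 57.1% and 58.4% of the collagen UMIs in immune cells, compared with 73.9% in Ptprc-low cells of each library. Only 4 and 2 immune cells held 20 or more collagen UMIs. Selected other genes of the Krt18-high clusters were also found in immune cells. Their fractions of the Ptprc-low level ran from Sparc at 1.14% and 1.33% to Krt8 at 2.90% and 3.43%. Between them lay Cald1 at 1.52% and 1.59%, Cav1 at 1.87% and 2.23%, Serpinh1 at 2.16% and 2.30% and Krt18 at 2.14% and 2.73%. Tnc, which was not selected, stood at 3.94% and 6.03% in T cells and at 2.95% and 2.02% in dendritic cells.

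The immune collagen level was higher in the Lcn2-ko-labelled library, by a log2 ratio of 0.28 (0.23 to 0.34), while in Ptprc-low cells the ratio was 0.06 (0.05 to 0.07). Krt18 moved the same way in immune cells, at 13.2 and 17.6 CPM (0.41, interval 0.20 to 0.63), as did Sparc, at 22.1 and 26.7 CPM (0.27, interval 0.10 to 0.44). Cav1 was also higher (0.33, interval 0.04 to 0.61), while the intervals of Krt8 (0.21, -0.04 to 0.46) and Serpinh1 (0.08, -0.19 to 0.35) included 0. Cald1 did not move up, at 10.2 and 9.44 CPM (-0.11, interval -0.39 to 0.16). However, its ratio in Ptprc-low cells was -0.18, and mast cells or basophils held 114 and 84.7 CPM of it. With the cells marked as doublets kept, the ratio of the summed collagens turned to -0.047, and these marked cells, 318 and 311 of them, carried 3240 and 2813 CPM of collagen. The part of carried-over RNA and of doublets in the difference was not tested.

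A few collagen genes stood at least 4-fold above the proportion set by the leading collagens in particular immune classes. A member was counted when its level relative to Ptprc-low cells was at least 4-fold that of the 3 leading collagens in both libraries, with at least 5 UMIs in each. Genes that immune cells express pass this limit by default, and 94.8% to 99.7% of all genes tested did so in the 7 classes, so the counts are read only as a list of members that do not follow Col1a1. Passing were 2 of 11 members in neutrophils (94.8% of genes), 4 of 20 in monocyte-macrophages (97.3%), 3 of 17 in dendritic cells (97.5%), 4 of 19 in T cells (95.6%), 2 of 13 in NK cells (98.3%) and 1 of 4 in mast cells or basophils (99.3%). In B cells no member reached 5 UMIs in both libraries, and 99.7% of genes passed. They were 7 different genes, Col8a2, Col11a2, Col14a1, Col15a1, Col20a1, Col23a1 and Col27a1, and every other member tested in a class stayed under the limit in at least 1 library.

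**Figure D5:**
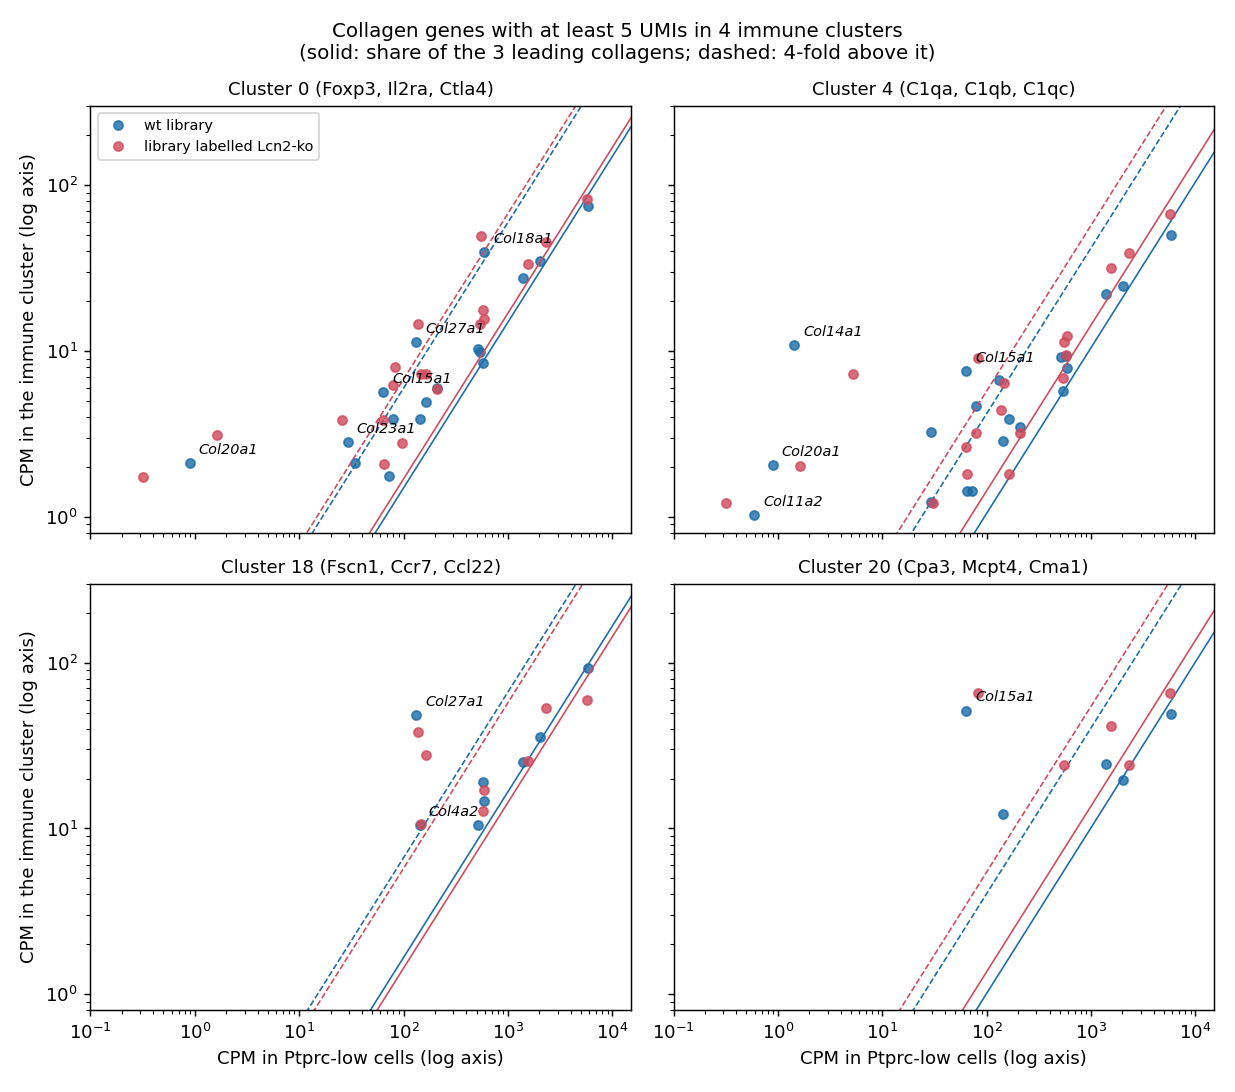
Level of each collagen gene with at least 5 UMIs in 4 immune clusters (vertical) against its level in Ptprc-low cells of the same library (horizontal), both as CPM on log axes, wt in blue and the Lcn2-ko-labelled library in red. Most genes lie along the solid line, the share of the 3 leading collagens, and the labelled genes lie above the dashed line, 4-fold higher, such as Col15a1 in cluster 20 at 51.5 and 65.6 CPM.

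Col15a1 stood out most in mast cells. In cluster 20, led by the mast cell proteases Cpa3, Mcpt4 and Cma1, it gave 21 UMIs in 19 of 69 wt cells and 19 UMIs in 12 of 47 cells of the Lcn2-ko-labelled library, or 51.5 and 65.6 CPM. Over all mast cells or basophils Col15a1 gave 50 and 57.5 CPM beside 50 and 99.8 CPM of Col1a1, although Col1a1 was far higher in Ptprc-low cells. In cluster 20 it was the single member to pass of 4 tested (99.4% of genes). No mast cell held more than 3 Col15a1 UMIs. It also passed in neutrophils, at 11.7 and 21.8 CPM from 11 and 11 UMIs, and in NK cells, at 4.20 and 5.71 CPM from 5 and 9 UMIs. Of 15 alternatives, the call held in 13 for neutrophils and in 9 for NK cells. Macrophage cluster 4, led by C1qa, C1qb and C1qc, gave 37 and 45 Col15a1 UMIs (7.54 and 9.06 CPM), and T cells stood at 4.20 and 4.10 CPM. In monocyte-macrophages Col15a1 no longer passed with the doublet-marked cells kept, with at least 500 genes per cell or thinned to 800 UMIs, and in mast cells or basophils it no longer passed thinned or with a minimum of 20 UMIs.

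Col14a1 was counted in the same macrophages. It gave 53 UMIs in 43 of 500 wt cells and 36 UMIs in 27 of 524 cells of the Lcn2-ko-labelled library, or 10.8 and 7.25 CPM, against 0.360 and 0.512 CPM in the Krt18-high clusters. In this cluster 4 of 18 members passed (97.8% of genes). In T cells it gave 2 and 3 UMIs and in dendritic cells 1 and 2. The gene lay well above its proportion to the leading collagens, by a log2 excess of 9.49 and 6.59, and the stromal-like cluster, at 174 and 420 CPM, had far more of it. In monocyte-macrophages it no longer passed with the doublet-marked cells kept, with at least 500 genes per cell or with cells thinned to 800 UMIs.

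Col27a1 was spread widely over immune cells, with 101 and 106 UMIs in T cells (11.5 and 10.3 CPM). It was highest in cluster 18, dendritic cells led by Fscn1, Ccl22 and Ccr7, at 48.5 and 38.2 CPM, in 12 of 84 and 12 of 91 cells. There 2 of 6 members passed (99.0% of genes), the other being Col4a2 on 5 and 5 UMIs. The other dendritic clusters gave 5.04 and 3.73 CPM (cluster 7) and 5.26 and 5.77 CPM (cluster 12). Cluster 7, led by Xcr1 and Clec9a, was instead where Col23a1 stood out, at 6.44 and 7.92 CPM from 23 and 17 UMIs, as 1 of 13 members tested (98.2% of genes).

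Col18a1 passed in no class as a whole but did so in 1 cluster. In cluster 0, T cells led by the regulatory T cell genes Foxp3, Il2ra and Ctla4, it gave 112 UMIs in 96 of 1162 wt cells and 143 UMIs in 110 of 1138 cells of the Lcn2-ko-labelled library, or 39.5 and 49.6 CPM. Its log2 excess there was 2.15 and 2.40, and 5 of 16 members passed in that cluster (96.9% of genes). The CD8 T cell clusters 2 and 8 gave 8.11 and 9.56 CPM and 9.21 and 11.8 CPM. Cluster 16, also with Foxp3 and Il2ra among its leading genes, gave 6.79 and 13.3 CPM, near those. The annotation places Slc19a1 on the opposite strand across part of Col18a1, and how the counting treated strand is not given in the sources used here. The remaining members passed on few UMIs, Col8a2 in NK cells on 6 and 8, Col11a2 in T cells on 8 and 12, and Col20a1 in T cells on 13 and 22.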

How the data were processed

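The 2 BD Rhapsody libraries of sorted CD45+ cells were 1 per genotype label. The authors deposited counts, UMIs per gene and barcode with no normalisation. The submitters' processing notes name Cell Ranger and mm10 without a version. Barcodes with under 200 genes or over 20% mitochondrial UMIs were dropped. Scrublet's own threshold marked 1 cell per library, so the top 4% of doublet scores were left out, 318 and 311 cells. Cells were clustered jointly in scanpy 1.11.5 (2000 variable genes without collagens, 30 components, 15 neighbours, Leiden resolution 1, no batch correction). Clusters under 100 CPM of Ptprc were called Ptprc-low, and those with at least 50% of endothelial markers stromal-like. Immune names needed at least 40% of a marker list, limits set after seeing the data. Levels are summed UMIs as CPM with exact Poisson, Clopper-Pearson or conditional binomial intervals. A count of 0 was read as allowing 3 UMIs. Named were members at 20 CPM, members above the carry-over proportion, extreme ratios, up to 4 genes per list and 6 genes most like the collagens. Members, lists and rules were chosen with earlier results of these data known. Promoters came from RefSeq (35 of 44 members matched) and positions from GENCODE. The calling rules were also run on counts simulated from these data, with planted changes larger than the limits and no spread between libraries. That run checks the code and not the calls.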

Additional observations from a re-analysis of the deposited data

How the results depend on the processing

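The alternatives changed 1 choice at a time, and leaving out the stromal-like cluster and leaving out immune cells with 20 or more collagen UMIs were chosen after seeing the data. The collagen level in Ptprc-low cells, 12725 CPM over both libraries, was 12622 with doublet-marked cells kept, 12475 with at least 500 genes per cell, 13434 as a mean over cells, 13630.3 with cells thinned to 800 UMIs, 12811 in cells with 0 Ptprc UMIs, 12468 with a Ptprc limit of 50 CPM or without the stromal-like cluster, and 12646 without the top cell. Its log2 ratio between libraries, 0.06, stayed above 0 throughout, at 0.027 with 500 genes, 0.028 with the limit of 50 CPM or without the stromal-like cluster, 0.043 with 0 Ptprc UMIs, 0.071 as a mean over cells or thinned, and 0.087 with median ratio scaling. The 1 member past 1.5-fold became 0 with 500 genes, with the limit of 50 CPM and without the stromal-like cluster. With a minimum of 10 UMIs in place of 20 CPM, 6 members were higher and 5 lower.

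The immune level as a percent of the Ptprc-low level, 1.78%, was 2.39% with doublet-marked cells kept, 4.48% with 500 genes, 1.99% as a mean over cells, 1.89% thinned, 1.81% with the limit of 50 CPM and 1.74% without immune cells of 20 or more collagen UMIs. Its log2 ratio, 0.28, was -0.047 with doublet-marked cells kept and 0.83 with 500 genes. With 500 genes, 14 and 21 of the stromal-like cells were placed with an NK cell cluster and 4 and 4 were left out, so Col1a2 in that cluster has no value there. The 7 members above the carry-over proportion became 6 with doublet-marked cells kept (Col14a1 lost), 11 with 500 genes, 14 at 2-fold and 3 at 20 UMIs (Col14a1, Col15a1 and Col27a1). Thinned, 4 passed, Col23a1 and Col27a1 of the 7 together with Col12a1 and Col16a1. Of the 16 pairs of member and class, Col27a1 in T cells passed under all 15 alternatives. Col1a2 in the stromal-like cluster, 7106 CPM, was 6795 with doublet-marked cells kept, and in the Krt18-high clusters it moved less than its interval in all 7 alternatives. The log2 difference of the cycling cluster, -0.74, was -0.78 with doublet-marked cells kept, -0.80 with at most 10% mitochondrial UMIs, -0.76 at Leiden resolution 0.5 and -0.83 with libraries centred. Apart from these placements, the cause of the changes was not tested.

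No paired analysis was possible because each label has 1 library, and none was left out for the same reason. Depth limits most members: 26 of 44 stayed under 20 CPM in Ptprc-low cells, the stromal-like values rest on 43 cells, and several members above the carry-over proportion rest on fewer than 10 UMIs in a library.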
